A study of Mus musculus with 3 samples.

Results

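The 8 genes described here carry the canonical Wnt signal in the nucleus or are switched on by it, and they are 8 of the 27998 genes in the deposited count matrix. They were chosen by symbol, each symbol matched 1 gene, and all 8 had enough counts to be tested. The 4 genes Lef1, Tcf7, Tcf7l1 and Tcf7l2 encode the TCF/LEF proteins that bind DNA. Ctnnb1 encodes beta-catenin, and Sp5, Axin2 and Nkd1 are direct target genes. In canonical Wnt signalling a Wnt ligand stops the degradation of beta-catenin, which then enters the nucleus and binds TCF/LEF proteins at target genes. Without beta-catenin, TCF/LEF proteins, Tcf7l1 above all, hold target genes down. In the fetal kidney, Wnt9b from the ureteric bud acts on the nephron progenitors around it, and beta-catenin activity is needed both to keep progenitors and to start their change into epithelium, of which Wnt4 and then Lhx1 are early markers.

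The cells came from mouse embryos at E14.5 that carried Six2GFP, a fluorescent reporter of the progenitor gene Six2. Fluorescent, living single cells were sorted from kidneys of several litters, which had been pooled into 3 tubes, and the tubes were run side by side on the 10x Chromium version 2 system. All samples belong to 1 labelled group with no treatment and no control genotype, and the comparisons are therefore between cells of the same tubes. The 3 libraries are named 1, 2 and 3 after the suffix of their cell barcodes, and no source used here ties a suffix to a tube.

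Of 7924 barcodes, 7878 were kept, with 50653202, 35198270 and 35447738 unique molecular identifiers (UMIs, each 1 captured RNA molecule) in libraries 1, 2 and 3. Cells were grouped by raw UMIs. Lhx1-positive cells had at least 1 Lhx1 UMI and numbered 79 (31, 29 and 19 per library). Wnt4-positive cells had at least 1 Wnt4 UMI and no Lhx1 UMI and numbered 410 (199, 103 and 108). Six2-positive cells had at least 1 Six2 UMI and neither of the others and numbered 5994 (2167, 2154 and 1673). The remaining 1395 cells had no UMI of the 3 genes. Lhx1-positive cells held 758156, 373985 and 414859 UMIs in libraries 1, 2 and 3, so that 1 UMI of a gene is worth 1.32 to 2.67 CPM there. CPM, the unit of every level given here, is the UMIs of a gene per 1000000 UMIs of the same library and group.

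The groups were checked on marker lists without Six2, Wnt4 and Lhx1, which chose them. The summed level of 7 other early nephron markers was 194 ± 57.0 CPM in Lhx1-positive, 15.2 ± 3.41 in Wnt4-positive and 5.27 ± 1.45 in Six2-positive cells (SD, n = 3). That of 5 other committing markers was 839 ± 276, 364 ± 48.5 and 237 ± 33.8 CPM in the same order, so that the sum was highest in Lhx1-positive and not in Wnt4-positive cells. Ccnd1 weighed most in it, at means of 509, 168 and 122 CPM, and Pax8 and Tmem100 had the same order. Bmper was highest in Wnt4-positive cells (25.7, 52.6 and 26.4 CPM). Fgf8 did not set Wnt4-positive apart from Six2-positive cells (89.0, 51.4 and 52.8 CPM). The summed level of 5 other markers of uncommitted progenitors was 619 ± 211, 767 ± 242 and 1118 ± 226 CPM, with overlap between neighbouring groups in this order. The 8 ureteric markers summed to 6.59 to 227 CPM per library in Lhx1-positive cells. The sums were 1.29 to 1.41 CPM in Wnt4-positive and 0.297 to 0.779 CPM in Six2-positive cells. In Lhx1-positive cells Calb1 weighed most, with 0, 66 and 40 UMIs in libraries 1, 2 and 3. Ret, Wnt11, Wnt9b, Gata3 and Tfcp2l1 had 1 to 11 UMIs each there, and Aqp2 and Upk3a had 0. Only 6 of the 79 Lhx1-positive cells held a ureteric marker UMI. The 8 immune markers summed to 0 to 7.23 CPM in Lhx1-positive, 1.72 to 58.9 in Wnt4-positive and 1.77 to 10.6 in Six2-positive cells. The 5 stroma markers averaged a summed 90.8, 81.9 and 104 CPM in Lhx1-positive, Wnt4-positive and Six2-positive cells, and all 5 had UMIs in each group. The 4 endothelium markers summed to 0.803, 1.57 and 1.79 CPM on average. The 4 erythroid markers averaged a summed 0, 2.34 and 1.68 CPM. With 1 UMI worth 1.32 to 2.67 CPM in Lhx1-positive cells, their 0 there does not set that group apart. A further check used 73 cells with UMIs of 3 or more immune markers, which had no UMI of Lef1, Tcf7 or Sp5 and 1 UMI each of Tcf7l1, Axin2 and Nkd1. They held 30 UMIs of Tcf7l2, at 41.6 ± 14.8 CPM, and 93 of Ctnnb1, at 128 ± 33.5 CPM (SD, n = 3). These cells are therefore no negative control for Tcf7l2 and Ctnnb1. Libraries shared 10, 7 and 5 barcode sequences in their pairs.

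Relative to all UMIs, those of Sp5 and Lef1 were over-represented in the few committing cells, although many lay elsewhere. Six2-positive cells, with 77.3% of all UMIs, held 42.0% of those of Sp5 and 40.1% of those of Lef1. Cells of no group, with 14.8% of all UMIs, held 4.88% and 16.6%. Wnt4-positive cells held 6.68% of all UMIs but 45.4% of the 205 Sp5 UMIs and 30.5% of the 187 Lef1 UMIs, and Lhx1-positive cells held 1.28% of all UMIs, 7.80% of those of Sp5 and 12.8% of those of Lef1. Tcf7l1 ran the other way, with 4.11% of its 7536 UMIs in Wnt4-positive cells. Axin2, at 6.93%, and Ctnnb1, at 5.97%, were spread over the groups much as all UMIs were. Levels are described as CPM, and each gene's level is compared between groups, not with that of another gene. Fewer cells with the RNA and less RNA per cell cannot be told apart in these summed levels, and shares of cells are given further on.

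The promoters of Sp5, Lef1 and Axin2 are shown because the first 2 genes had the largest changes and Axin2, also a direct target, had none that was detected. Each sequence is the 250 bases before the first RefSeq start on the gene's own strand (GRCm38.p6), at chr2:70474673-70474922 for Sp5, chr3:131110047-131110296 for Lef1 and chr11:108920099-108920348 for Axin2, all on the plus strand, written 5′ to 3′. Capitals mark CTTTGA or CTTTGT on either strand (reverse complements TCAAAG and ACAAAG), the core letters that TCF/LEF proteins prefer.
Sp5: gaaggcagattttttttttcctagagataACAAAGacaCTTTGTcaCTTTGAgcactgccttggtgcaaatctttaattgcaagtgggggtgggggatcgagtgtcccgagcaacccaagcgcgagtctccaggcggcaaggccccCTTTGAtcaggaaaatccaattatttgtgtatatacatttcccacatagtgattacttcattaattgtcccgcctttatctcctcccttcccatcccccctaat
Lef1: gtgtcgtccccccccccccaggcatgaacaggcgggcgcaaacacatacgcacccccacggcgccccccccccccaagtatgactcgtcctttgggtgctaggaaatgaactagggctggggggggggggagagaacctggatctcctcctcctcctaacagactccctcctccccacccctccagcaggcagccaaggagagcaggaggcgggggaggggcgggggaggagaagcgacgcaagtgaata
Axin2: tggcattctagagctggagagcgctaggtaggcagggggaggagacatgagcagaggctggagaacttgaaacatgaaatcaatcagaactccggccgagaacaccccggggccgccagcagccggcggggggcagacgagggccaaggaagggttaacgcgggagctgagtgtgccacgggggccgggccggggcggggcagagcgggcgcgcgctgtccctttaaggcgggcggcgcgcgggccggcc
The Sp5 window held 4 such matches, 221, 212, 204 and 104 bases before the start, and the last of them ran on as CTTTGAT. The Tcf7l1 window held 1, at 28 bases before the start, and the windows of Lef1, Tcf7, Tcf7l2, Ctnnb1, Axin2 and Nkd1 held 0. The windows of Ctnnb1 (chr9:120933150-120933399) and Nkd1 (chr8:88527383-88527632) lay inside the gene spans given below, and that of Tcf7l1 partly so. That of Tcf7 held an ATG with no stop codon in frame after it, and may hold coding sequence. For these 4 genes the counts therefore do not describe the bases before the whole gene. Of 27025 RefSeq promoters of this length, 27.8% held at least 1 match, 0.107% held 4 or more and 3.26% held CTTTGAT. A match describes letters only and is not evidence of binding.

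Whether the first step of commitment goes with a change in these genes was asked by comparing Wnt4-positive with Six2-positive cells. Sp5, Lef1 and Nkd1 were higher in Wnt4-positive cells and Tcf7l1 was lower, while Tcf7, Tcf7l2, Ctnnb1 and Axin2 did not pass the test. UMIs were summed per library and group and tested with edgeR's quasi-likelihood test, with the library as a block and p-values adjusted over 12846 genes by the Benjamini-Hochberg method (threshold 0.05, two-sided). The 4 members called compare with 8.40% of all genes tested, 4.05% higher and 4.35% lower. The p-values rest on variation between these 3 tubes alone, which may be technical. The spread used for a gene was moderated towards that of all genes, which weighed most in it. A p-value therefore does not measure how that gene alone varied between the tubes. The members' median log2 fold change was 0.33, and that of all genes was -0.02.

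Lef1 (ENSMUSG00000027985, chromosome 3, 131110471 to 131224356, plus strand, GRCm38) encodes the TCF/LEF protein most often linked to activation, and is itself a Wnt target. It was at 9.23, 24.1 and 19.3 CPM in Lhx1-positive cells of libraries 1, 2 and 3, at 7.03, 5.95 and 7.73 CPM in Wnt4-positive cells and at 0.837, 0.956 and 0.598 CPM in Six2-positive cells. Every Lhx1-positive value was above every Wnt4-positive value, and every Wnt4-positive value was above every Six2-positive value. Between Wnt4-positive and Six2-positive cells the log2 fold change was 3.14 ± 0.39 (SE), with an edgeR adjusted p of 2.328e-07. The counts behind these levels are small, at 24, 57 and 75 UMIs in Lhx1-positive, Wnt4-positive and Six2-positive cells. Those of Lhx1-positive cells lay in 15 cells, of which 2 held 3 or more UMIs and the most in a cell was 6. In library 2, the 3 Lhx1-positive cells with Wnt4 held 8 of the 9 UMIs, so the order above rests on few cells. The 47 Lhx1-positive cells with 1 Lhx1 UMI were at 5.96, 7.99 and 5.92 CPM (5 UMIs), overlapping the Wnt4-positive values. The 32 with 2 or more were at 11.8, 56.5 and 28.5 CPM (19 UMIs). Their median depths were 13727 and 23334 UMIs per cell, and the part of depth was not tested. When each cell was first reduced to 8000 UMIs in a single random draw and then grouped, the change was 2.09 and was no longer called (edgeR adjusted p = 0.0961).

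Tcf7l1 (ENSMUSG00000055799, chromosome 6, 72626378 to 72789254, minus strand) encodes the member of the family best known as a repressor. It was at 31.7, 34.8 and 33.7 CPM in Lhx1-positive cells, at 41.0, 43.0 and 30.1 CPM in Wnt4-positive cells and at 60.9, 70.0 and 66.3 CPM in Six2-positive cells. All Six2-positive values lay above those of both other groups, which overlapped each other. Tcf7l1 fell by 0.76 ± 0.09 on the log2 scale in Wnt4-positive relative to Six2-positive cells (edgeR adjusted p = 1.851e-07). It was thus lower in the group of cells whose summed Lef1 level was higher.

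Tcf7 (ENSMUSG00000000782, chromosome 11, 52252371 to 52283014, minus strand), which encodes the family member TCF1, was at 2.64, 10.7 and 24.1 CPM in Lhx1-positive cells, at 8.20, 8.60 and 12.0 CPM in Wnt4-positive cells and at 4.61, 7.22 and 7.14 CPM in Six2-positive cells. Every Wnt4-positive value was above every Six2-positive value, whereas the Lhx1-positive values spread across both. The log2 fold change between Wnt4-positive and Six2-positive cells was 0.67 ± 0.22 with a 95% interval of 0.22 to 1.12, and the edgeR adjusted p of 0.0563 missed the threshold. Tcf7 was called in 8 of 16 alternatives, among them without library 2 (0.80, adjusted p = 0.0124) and with Wnt4-positive cells limited to those with at least 2 Wnt4 UMIs (1.34, adjusted p = 0.000265). Tcf7l2 (ENSMUSG00000024985, chromosome 19, 55741820 to 55933654, plus strand), which encodes TCF4, averaged 43.1 ± 11.3 CPM in Lhx1-positive, 44.8 ± 3.73 in Wnt4-positive and 50.0 ± 3.48 in Six2-positive cells (SD, n = 3). Its log2 fold change of -0.17 between Wnt4-positive and Six2-positive cells had a 95% interval of -0.35 to 0.01 (edgeR adjusted p = 0.281).

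**Figure D1:**
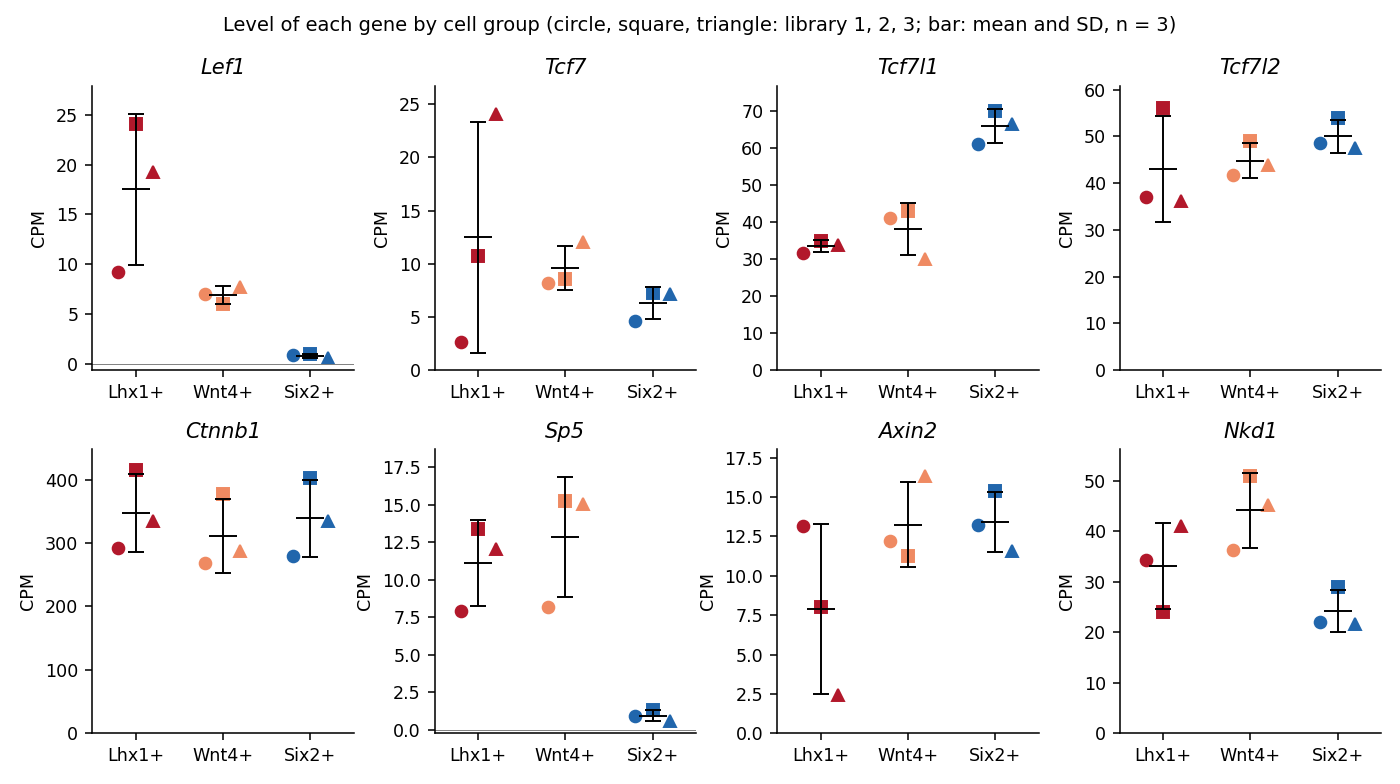
Level of each of the 8 genes in CPM (vertical axes, each from 0) in Lhx1-positive, Wnt4-positive and Six2-positive cells, with 1 symbol per library and bars for the mean and SD of 3 libraries. Lef1 and Sp5 lie near 1 CPM in Six2-positive cells and above 5 CPM in all sums of the other groups, and Tcf7l1 is above 60 CPM in Six2-positive cells and below 45 CPM elsewhere.

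The make-up of the TCF/LEF family differed between the groups. Lef1 made up 15.9% ± 3.96 of the family's UMIs in Lhx1-positive, 7.01% ± 1.34 in Wnt4-positive and 0.648% ± 0.135 in Six2-positive cells (SD, n = 3). Tcf7l1 made up 32.3% ± 6.22, 38.1% ± 5.25 and 53.5% ± 0.921 in the same order. Tcf7 made up 11.0% ± 9.26, 9.76% ± 2.67 and 5.12% ± 0.976, and Tcf7l2 stayed between 40.7% and 45.1% on average. The family total was 106 ± 23.4 CPM in Lhx1-positive, 99.4 ± 6.55 in Wnt4-positive and 123 ± 8.69 in Six2-positive cells. The Lhx1-positive shares rest on 61, 47 and 47 UMIs of the family in libraries 1, 2 and 3. The exact binomial 95% interval for Lef1 was 4.74% to 22.2% in library 1, 9.15% to 33.3% in library 2 and 7.65% to 30.8% in library 3, and these intervals cover counting error only.

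**Figure D2:**
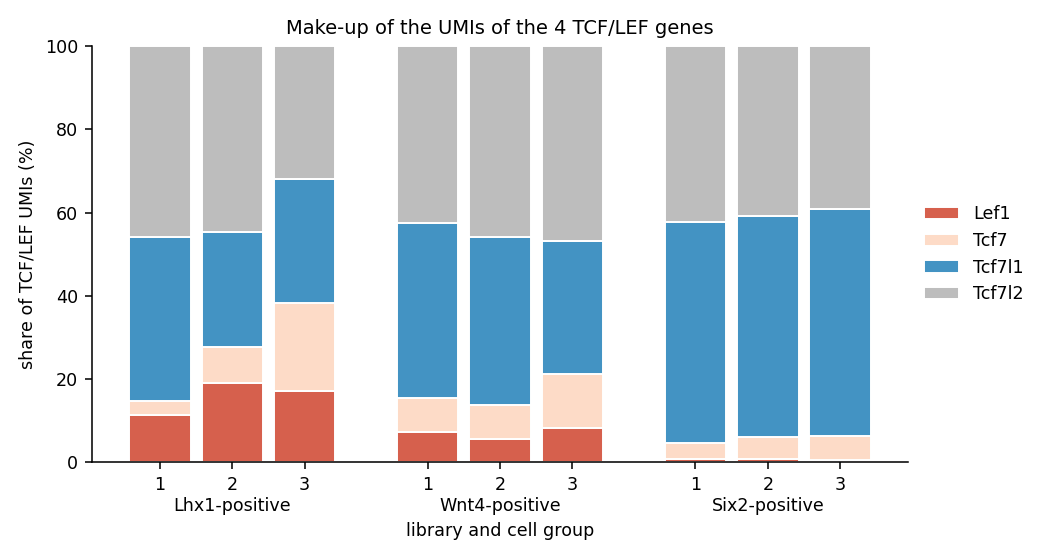
Share of the summed UMIs of Lef1, Tcf7, Tcf7l1 and Tcf7l2 that each gene took (vertical axis, percent, stacked to 100) in each library of the Lhx1-positive, Wnt4-positive and Six2-positive groups. Lef1 took 11.5% to 19.1% in Lhx1-positive, 5.59% to 8.26% in Wnt4-positive and under 1% in Six2-positive cells.

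Ctnnb1 (ENSMUSG00000006932, chromosome 9, 120929216 to 120960507, plus strand), the gene of beta-catenin, was at 293, 414 and 335 CPM in Lhx1-positive cells, at 268, 377 and 287 CPM in Wnt4-positive cells and at 279, 402 and 335 CPM in Six2-positive cells. The libraries differed more than the groups did, with library 2 the highest in all 3 groups. Between Wnt4-positive and Six2-positive cells the log2 fold change was -0.13 ± 0.05, with a 95% interval of -0.22 to -0.03. The edgeR adjusted p was 0.107, and it passed the threshold when cells with Six2 and Lhx1 but no Wnt4 were left out (-0.14, adjusted p = 0.0357) and when cells with the highest doublet scores were left out (-0.14, adjusted p = 0.0461). Beta-catenin activity is set largely by protein stability, which was not measured.

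Sp5 (ENSMUSG00000075304, chromosome 2, 70474923 to 70477729, plus strand) encodes a zinc finger transcription factor directly induced by beta-catenin. It was at 7.91, 13.4 and 12.1 CPM in Lhx1-positive cells, at 8.20, 15.2 and 15.0 CPM in Wnt4-positive cells and at 0.918, 1.27 and 0.563 CPM in Six2-positive cells. The Lhx1-positive and Wnt4-positive ranges overlapped, and both lay above all Six2-positive values. The log2 fold change between Wnt4-positive and Six2-positive cells was 3.75 ± 0.35 (edgeR adjusted p = 3.445e-10), from 93 UMIs in Wnt4-positive and 86 in Six2-positive cells.

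Nkd1 (ENSMUSG00000031661, chromosome 8, 88521354 to 88594884, plus strand) encodes a protein that binds Dishevelled and dampens Wnt signalling as a feedback inhibitor. It was at 34.3, 24.1 and 41.0 CPM in Lhx1-positive cells, at 36.3, 50.9 and 45.1 CPM in Wnt4-positive cells and at 21.9, 29.0 and 21.6 CPM in Six2-positive cells. Wnt4-positive values were all above the Six2-positive ones, and the Lhx1-positive values overlapped both groups. The Lhx1-positive values rest on 26, 9 and 17 UMIs, and the most in a cell of that group was 12. The log2 fold change was 0.85 ± 0.11 between Wnt4-positive and Six2-positive cells (edgeR adjusted p = 6.376e-07).

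Axin2 (ENSMUSG00000000142, chromosome 11, 108920349 to 108950783, plus strand) encodes a scaffold of the complex that degrades beta-catenin and is widely used as a reporter of Wnt signalling. It was at 13.2, 8.02 and 2.41 CPM in Lhx1-positive cells, at 12.2, 11.2 and 16.3 CPM in Wnt4-positive cells and at 13.2, 15.4 and 11.6 CPM in Six2-positive cells. All 3 groups overlapped, and the Lhx1-positive values rest on 10, 3 and 1 UMIs. The log2 fold change between Wnt4-positive and Six2-positive cells was 0.00 ± 0.18, with a 95% interval of -0.36 to 0.36 (edgeR adjusted p = 0.999). A change as large as that of Nkd1 thus lay outside the interval for Axin2, although the difference between the 2 genes was not tested.

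Lhx1-positive cells were then set against both other groups. Relative to Wnt4-positive cells, 0 of the 8 genes passed the edgeR test, where 1.09% of all genes did (0.849% higher, 0.241% lower). At an unadjusted p under 0.05, 1 member of 8, Lef1, passed, as did 1188 of all genes (9.25%), a share near that of the members. DESeq2 called 0 members and 132 of all genes. Lef1 had a log2 fold change of 1.14 ± 0.47 with a 95% interval of 0.18 to 2.10 and an edgeR adjusted p of 0.409. It was called at 1.83 (adjusted p = 0.00951) when the 36 cells with Lhx1 and Six2 but no Wnt4 were left out, and at 1.79 (adjusted p = 0.0284) when 2 Lhx1 UMIs were required, a threshold chosen after seeing the data. The intervals of the other members were wide, such as -1.21 to 0.73 for Sp5 and -1.47 to 0.28 for Axin2, and a missed threshold does not show that the groups were alike. For Ctnnb1 the interval was narrower, at -0.03 to 0.28.

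Relative to Six2-positive cells, Lef1 and Sp5 were higher and Tcf7l1 was lower in Lhx1-positive cells, 3 of 8 members where 4.55% of all genes were called (2.58% higher, 1.98% lower). The log2 fold changes were 4.28 ± 0.52 for Lef1 (edgeR adjusted p = 1.899e-07), 3.51 ± 0.58 for Sp5 (6.688e-05) and -1.01 ± 0.19 for Tcf7l1 (0.0004667). Nkd1, at 0.48 ± 0.23, was not called here (edgeR adjusted p = 0.299), nor was Axin2, at -0.59 with a 95% interval of -1.41 to 0.22. The Axin2 value was -1.43 without library 1 and -0.32 without library 3, and against Wnt4-positive cells it was -1.55 and -0.09 without the same libraries, so that single libraries set its size. Without library 1, Tcf7l1 kept its size at -1.03 but had an adjusted p of 0.0534. The calls of Lef1 (1.01, adjusted p = 0.944) and Sp5 (2.42, adjusted p = 0.616) were lost when cells were reduced to 8000 UMIs before grouping, which left 51 Lhx1-positive cells. That reduction was a single random draw, which was noisy for genes as rare as these. With cells carrying immune or ureteric markers left out, the same counts of members were called, 2 higher and 1 lower. This comparison shares its cells with the others and is not independent of them. Among all genes 331 were higher and 254 lower, and 419 and 187 under another scaling (RLE).

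**Figure D3:**
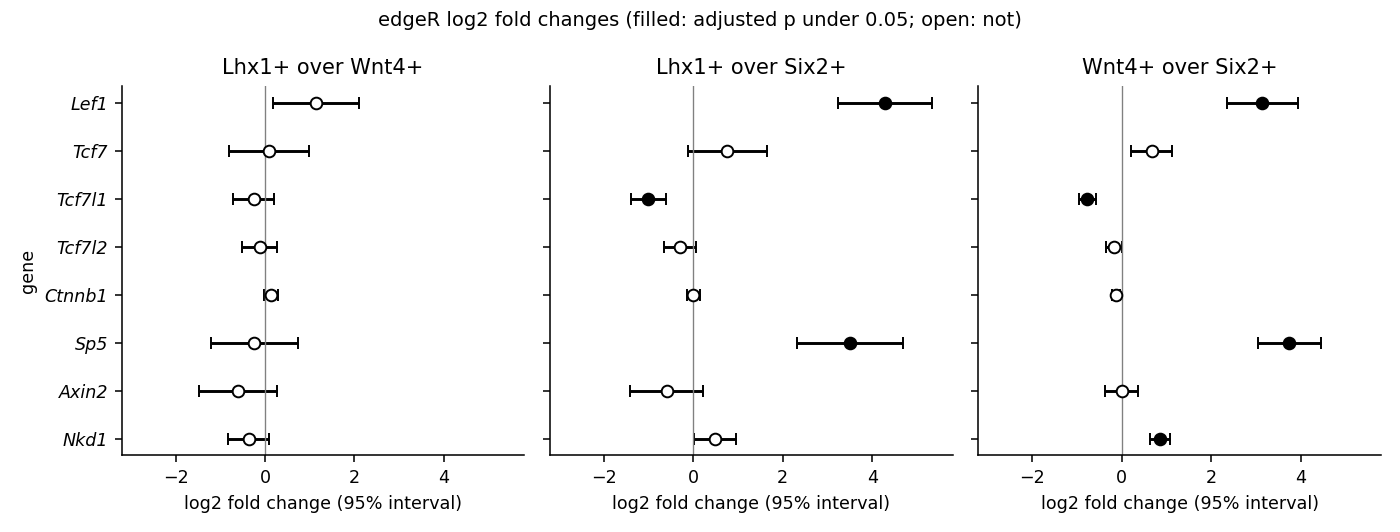
Log2 fold change of each gene (horizontal axes) with its 95% interval, for Lhx1-positive over Wnt4-positive, Lhx1-positive over Six2-positive and Wnt4-positive over Six2-positive cells, filled where the edgeR adjusted p was under 0.05. Lef1 and Sp5 lie above 3 in both comparisons with Six2-positive cells and Tcf7l1 below 0, and no gene is filled between Lhx1-positive and Wnt4-positive cells.

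The share of cells with at least 1 UMI of a gene was compared at an equal depth of 8000 UMIs per cell, as the share expected over all random draws of that depth. Shallower cells were left out, which removed 1 Lhx1-positive, 9 Wnt4-positive and 216 Six2-positive cells. Lef1 was found in 8.45% ± 4.54 of Lhx1-positive, 4.86% ± 0.646 of Wnt4-positive and 0.614% ± 0.175 of Six2-positive cells (SD, n = 3). Sp5 was found in 5.74% ± 2.39, 7.24% ± 2.05 and 0.653% ± 0.283 in the same order. Both genes were thus seen in few cells of any group at this depth. Tcf7l1 was found in 23.7% ± 3.53 of Lhx1-positive, 26.6% ± 4.55 of Wnt4-positive and 40.0% ± 2.04 of Six2-positive cells. Nkd1 was found in 21.3% ± 6.21, 27.0% ± 3.12 and 16.9% ± 2.71, and Ctnnb1 in 93.8% ± 2.15, 91.0% ± 4.42 and 92.7% ± 3.22.

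At full depth the same order held for Lef1, found in 20.5% ± 9.67 of Lhx1-positive, 9.65% ± 2.48 of Wnt4-positive and 1.13% ± 0.222 of Six2-positive cells, at median depths of 16238, 18360 and 14730 UMIs per cell. Sp5 was found in 11.9% ± 4.54, 13.6% ± 4.29 and 1.17% ± 0.341. In the immune marker cells, with a median of 9468 UMIs, 0 of 73 held a Lef1, Tcf7 or Sp5 UMI, which allows a share of up to 4.11%. Whether such cells should lack these genes was not tested. That limit is set by the number of these cells, which were also shallower, and the check cannot tell whether the Six2-positive shares of Lef1 and Sp5 are background. The fold changes over Six2-positive cells count those UMIs as they are. Single cells rarely held many copies of Sp5 or Lef1. Of the 54 Wnt4-positive cells with Sp5, 30 had 1 UMI and the most in a cell was 5, and of the 41 with Lef1, 31 had 1 and the most was 6.

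Within the Wnt4-positive group, the levels of Sp5 and Lef1 differed with the number of Wnt4 UMIs in the cell, described here without a test. In the 280, 61 and 69 cells with 1, 2 and 3 or more Wnt4 UMIs, Sp5 averaged 8.15 ± 2.82, 17.2 ± 7.73 and 28.4 ± 15.9 CPM (SD, n = 3). Lef1 averaged 3.97 ± 1.29, 11.2 ± 4.85 and 12.8 ± 2.14 CPM. The Lef1 values of cells with 1 Wnt4 UMI were all below those of the other classes, and within each library Sp5 was higher in each class than in the class before it. Tcf7 averaged 5.98 ± 0.476, 18.3 ± 4.11 and 16.7 ± 7.41 CPM. Nkd1 averaged 39.4 ± 3.02, 68.0 ± 30.0 and 53.5 ± 28.2 CPM, with overlapping values, and Tcf7l1 averaged 40.4 ± 6.57, 36.1 ± 19.4 and 33.1 ± 5.92 CPM, also with overlap. The remaining members had overlapping values in neighbouring classes, with means of 12.3, 15.2 and 15.7 CPM for Axin2, 47.8, 35.8 and 42.9 CPM for Tcf7l2 and 315, 286 and 321 CPM for Ctnnb1. Median depth was 16876, 20500 and 24028 UMIs per cell in these classes, so that cells with more Wnt4 UMIs were also deeper, and its part in the pattern was not tested. Library 2 had only 8 and 7 cells in the upper classes.

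**Figure D4:**
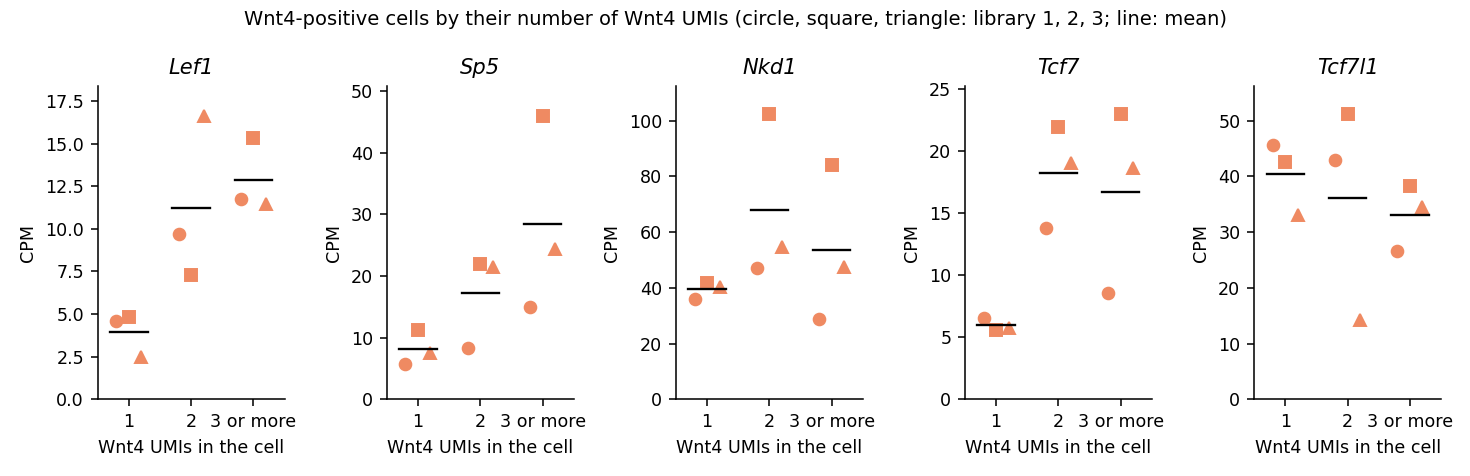
Levels in CPM (vertical axes, from 0) of Lef1, Sp5, Nkd1, Tcf7 and Tcf7l1 in Wnt4-positive cells with 1, 2 and 3 or more Wnt4 UMIs (horizontal axes), with 1 symbol per library and a line at the mean. Cells with 1 Wnt4 UMI had the lowest mean for Lef1, Sp5, Nkd1 and Tcf7 and the highest for Tcf7l1.

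The other progenitor markers split the groups further, described here without a test. Among Wnt4-positive cells, the 202 without Cited1, a marker of the least committed progenitors, had 11.4, 9.31 and 12.5 CPM of Lef1, against 2.78, 3.46 and 3.90 CPM in the 208 with Cited1. The ranges did not overlap. Nkd1 averaged 55.1 ± 12.9 CPM without and 35.3 ± 3.87 CPM with Cited1, again without overlap, and Sp5 averaged 14.6 ± 2.92 and 11.2 ± 5.35 CPM, with overlap. Among Six2-positive cells, the 1645 with Pax8, an early gene of the committing cells, had 52.6, 58.6 and 54.0 CPM of Tcf7l1, against 65.2, 75.1 and 71.4 CPM in the 4349 without. Tcf7l1 was thus lower with Pax8 in every library, among cells with no Wnt4 UMI. Within Lhx1-positive cells, the 24 with Wnt4 held 21 of the group's 24 Lef1 UMIs, and the 55 without Wnt4 held 3. Per library these were 18.7, 130 and 28.7 CPM with Wnt4, and 2.29, 3.20 and 5.85 CPM without. Depth differed in each split. The medians were 17410 UMIs per cell without and 19138 with Cited1, 17014 with and 14029 without Pax8, and 23650 with and 13521 without Wnt4. The part of depth was not tested.

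Sp5 and Lef1 were found together in some cells. Among the 54 Wnt4-positive cells with Sp5, 20.4% also had Lef1, against 8.43% of the remaining cells, and in Six2-positive cells 6.94% of the 72 cells with Sp5 had Lef1, against 1.08% of the rest. Cells with Sp5 were deeper, at a median of 21264 UMIs against 17664 in the Wnt4-positive group and 17484 against 14710 in the Six2-positive group, and the part of depth was not tested. Tcf7l1 was found in 46.3% of Wnt4-positive cells with Sp5 and in 48.9% of those without, so that Tcf7l1 RNA was present in many cells that had Sp5. With and without Lef1, Tcf7l1 was found in 53.7% and 48.0% of Wnt4-positive and 46.7% and 43.8% of Lhx1-positive cells. In Six2-positive cells the shares were 55.1% and 60.2%. Cells with Lef1 were deeper in each group, and the part of depth was not tested.

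The level of Tcf7l2 differed with the base make-up of the cell barcode, a technical property. In Six2-positive cells it averaged 60.9 ± 8.39 CPM where the 16-base barcode held 10 or more A and T bases, 49.7 ± 3.78 CPM with 7 to 9 and 43.2 ± 0.749 CPM with at most 6 (SD, n = 3), against 68.5 ± 10.8, 65.0 ± 4.26 and 67.4 ± 7.24 CPM of Tcf7l1 in the same classes. Cells with 10 or more made up 11.4% of Lhx1-positive, 11.5% of Wnt4-positive and 12.8% of Six2-positive cells. Leaving them out did not bring Tcf7l2 past the threshold in any of the 3 comparisons.

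Other genes of the pathway were counted by list, with no test between lists. In Wnt4-positive relative to Six2-positive cells, 4 of 8 tested secreted inhibitors were higher and 0 lower (median log2 fold change 1.01), where 4.05% of all genes tested were higher and 4.35% lower. Those named by rule were Notum, an enzyme that inactivates Wnt ligands (3.78 ± 0.62, edgeR adjusted p = 3.954e-05), Frzb, a decoy for Wnt ligands (2.21 ± 0.16, 6.802e-13), and Sfrp2, of the same family (0.68 ± 0.11, 3.629e-05). Of 13 other target genes 6 were higher and 0 lower (median 0.47), among them Notum again, the Notch ligand gene Jag1 (3.24 ± 0.47, edgeR adjusted p = 4.066e-06) and Tnfrsf19 (1.61 ± 0.27, 5.888e-05). One of 4 ligands, Wnt8b (2.29 ± 0.26, edgeR adjusted p = 2.431e-08), and 1 of 17 receptor and secretion genes, Fzd1 (0.76 ± 0.19, 0.006044), were higher. None of 18 cytoplasmic regulators and 0 of 20 nuclear cofactors of beta-catenin passed in either direction by edgeR, with medians of -0.06 and -0.01. Jag1 is also an early nephron marker. Notum had only 4, 26 and 20 UMIs in Lhx1-positive, Wnt4-positive and Six2-positive cells. It reached the 50 UMIs needed for testing only with those of Wnt4-positive cells, the group where it was called higher. Its call is therefore not read as support for either list, although both counts include it. Fzd1 was not called without library 1 (0.76, adjusted p = 0.152), without library 3 (0.65, 0.107), with DESeq2 (0.75, 0.142), with no library block (0.74, 0.217), with 2 Wnt4 UMIs required (0.77, 0.0822) and with cells reduced to 8000 UMIs (0.51, 0.646). Sfrp2 was not called with DESeq2 (0.69, 0.0537), with no library block (0.67, 0.376) and with thinned sums (0.78, 0.194).

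In Lhx1-positive relative to Wnt4-positive cells, 2 of 8 secreted inhibitors, 6 of 13 other targets and 1 of 17 receptor and secretion genes were higher, and 1 of 20 cofactors was lower, where 0.849% of all genes were higher and 0.241% lower. Relative to Six2-positive cells the counts were 4 higher among the inhibitors, 6 among the other targets, 1 among the receptors and 2 lower among the cofactors, where 2.58% of all genes were higher and 1.98% lower. Single calls in lists of this size are not read as a result about the list.

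The genes whose pattern over the 9 sums was most like that of a member, by Pearson's r of library-centred log2 CPM among 9525 genes, are given as a description over sums that share their libraries. They were Enoph1 (r = 0.994) and Lyar (0.987) for Sp5, Rbms1 and Rwdd1 (both 0.990) for Lef1, Meox2 (0.986) and Crym (0.984) for Tcf7l1, and Neil3 (0.998) and Pmf1 (0.988) for Nkd1. Likeness in pattern did not mean likeness in size. Rbms1 had a log2 fold change of 0.15 ± 0.07 between Wnt4-positive and Six2-positive cells and was not called (edgeR adjusted p = 0.260). Meox2 at -0.44 ± 0.06 and Crym at -0.85 ± 0.06 were both lower there (edgeR adjusted p = 4.004e-06 and 2.475e-13), and Crym is one of the markers of uncommitted progenitors. For Tcf7 the closest genes were Rps19bp1 and Larp4b, for Tcf7l2 Gsk3b and Gpc1, for Ctnnb1 Sptan1 and Abcc1, and for Axin2 Ccdc28a and Vars2, with r of 0.958 to 0.995.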

How the data were processed

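RNA was measured per cell in 3 pooled tubes. The authors deposited counts, whole numbers of UMIs per gene and cell, for which the submitters' processing notes name Cell Ranger 1.3.1 and the build mm10. The sources used here give no further filter before deposit. A text table of the same deposit was not used. Cells with fewer than 1000 detected genes or more than 10% mitochondrial UMIs were removed (7898 remained). Scrublet (scanpy 1.11.5, expected share 3%) called 20 cells (0.253%), which were left out. This is far below the expected share, so doublets are taken as still present, and how well the scores rank doublets was not tested.

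UMIs were summed per library and group and tested with edgeR 4.0.16 (R 4.3.3, TMM, at least 50 UMIs over the 9 sums, library as a block). The block rests on the groups coming from the same tubes, and sums of 1 library deviated together (Pearson's r of deviations from group means across 9533 genes, 0.125 to 0.779). Intervals come from the SE and the moderated degrees of freedom. DESeq2 1.42.0 was an alternative, and the other alternatives are given with their effect in the closing section. The exact expected share at 8000 UMIs replaced a single random draw after that draw proved noisy. The tests on cells reduced to 8000 UMIs still use that single draw. With the groups made at full depth, 1 of 78 Lhx1-positive cells held Lef1 in it, a mean of 1.75% where 8.45% was expected. For Wnt4-positive cells the values were 3.92% and 4.86%. Those tests also regrouped the cells after the draw, which left 234 Wnt4-positive and 51 Lhx1-positive cells. The parts of noise, regrouping and fewer UMIs in the calls lost were not tested. Six2, Wnt4 and Lhx1 chose the groups and are not reported as results. Scripts were tested on simulated data. Members, lists and groupings were chosen with earlier results of these data known. The genes named beside the members are up to 3 per list with the largest called changes in each direction between Wnt4-positive and Six2-positive cells, and the 2 genes most like each member in pattern.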

Additional observations from a re-analysis of the deposited data

Results flagged for a closer look

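The cells with no UMI of Six2, Wnt4 or Lhx1 entered no comparison, and all 8 genes were detected in them. Mean levels over the 3 libraries were 1.83 ± 0.661 CPM for Lef1, 4.86 ± 0.508 for Tcf7, 60.2 ± 5.05 for Tcf7l1, 49.3 ± 6.19 for Tcf7l2, 335 ± 70.2 for Ctnnb1, 0.550 ± 0.596 for Sp5, 9.34 ± 1.91 for Axin2 and 23.3 ± 2.10 for Nkd1 (SD, n = 3). Sp5 had 4, 6 and 0 UMIs there in libraries 1, 2 and 3. These cells were shallower, at a median of 12512 UMIs.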

How the results depend on the processing

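Sp5 was called higher in Wnt4-positive than in Six2-positive cells in all 16 alternatives that could test it. Thinning the sums of each library to its smallest left Lef1, Sp5 and Tcf7 untested and ended the calls of Tcf7l1 (-0.75, adjusted p = 0.116) and Nkd1 (0.63, 0.476). Counts of called genes moved more. Without the replicate block 87, 59 and 172 genes were called, against 1079, 140 and 585 with it (Wnt4-positive against Six2-positive, Lhx1-positive against Wnt4-positive and Lhx1-positive against Six2-positive cells), while the members called stayed 4, 0 and 3 in number. In the same order, cells thinned to 8000 UMIs gave 422, 29 and 99 and thinned sums 89, 77 and 218, both with fewer UMIs by construction. Leaving out 1 library gave 345 to 1347, 37 to 225 and 125 to 869. DESeq2 gave 375 for the first comparison and no filter 253 for the second. Leaving out cells with Six2, Lhx1 and no Wnt4 gave 450 and 1116 for the last 2 comparisons, and 2 Lhx1 UMIs, added after seeing the data, 448 and 1003. The cause was not tested.

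Signs turned only among uncalled members. For Axin2 in the first comparison the log2 fold change was -0.00041 with filterByExpr, -0.019 with no filter, -0.23 to 0.13 when 1 library was left out, the lowest without replicate 3, -0.045 with 2 Six2 UMIs, -0.0095 without the overlapping cells and -0.63 with thinned sums. In the second, Lef1 was at -1.08 with thinned cells, Tcf7 at -0.70 (without replicate 3) to 0.71 when 1 library was left out, -0.57 with 2 Wnt4 UMIs and -0.47 without immune and ureteric marker cells, and Sp5 at 0.032 without the overlapping cells and 0.34 with 2 Lhx1 UMIs. In the last, Tcf7 was at -0.085 (without replicate 3) to 1.26 when 1 library was left out and, with 2 Lhx1 UMIs, called at 1.53 (adjusted p = 0.0320). Ctnnb1 there was at -0.021 with no filter, -0.0036 without the block, -0.013 and -0.0034 without replicates 1 and 2 (0.022 without replicate 3), -0.00034 with 2 Wnt4 UMIs, -0.066 without the overlapping cells, -0.10 with thinned cells, -0.060 without high doublet scores, -0.022 without barcodes rich in A and T and -0.091 with 2 Lhx1 UMIs.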
